A study of Mus musculus with 5 samples.

Results

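The MYST acetyltransferases and their BRPF scaffolds were examined in mouse neural tubes that lacked the erythropoietin receptor EpoR. The group was fixed by gene symbol and was chosen with earlier results of these data known. It holds 9 of the 23284 genes in the count tables. These are the 5 enzymes Myst1, Myst2, Myst3, Myst4 and Kat5, the 3 scaffolds Brpf1, Brd1 and Brpf3, and the small subunit Ing5. RNA-seq of polyA RNA was done on 5 samples of neural tube, the embryonic tissue that forms the brain and spinal cord, all labelled E8.5. Of these, 2 samples were EpoR -/- (EpoR-null), 2 were EpoR +/+ (wild type) and 1 was EpoR +/- (heterozygote), and the wild type and heterozygous samples together were the 3 littermate controls. No other allele and no treatment is named in the labels, and strain is not given in the sources used here. The embryos came from matings of EpoR +/- mice, so the receptor was missing from the whole embryo and not from the neural tube alone, and the study's methods give a slightly later age than the labels. The tissue was dissected by hand with the help of enzymes, and the sources do not say whether a sample was 1 embryo or a pool.

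MYST enzymes transfer acetyl groups to lysines of histones, which loosens chromatin and marks active genes. MOZ (gene Myst3, now Kat6a) and its close relative MORF (Myst4, now Kat6b) acetylate histone H3, work in a complex with a BRPF scaffold, ING5 and MEAF6, and are known for their roles in blood stem cells, Hox gene expression and brain development. HBO1 (Myst2, now Kat7) can use the same scaffolds or the JADE scaffolds, MOF (Myst1, now Kat8) acetylates histone H4 within the MSL and NSL complexes, and TIP60 (Kat5) works in a large complex with TRRAP and EP400 that also serves DNA repair.

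The MYST enzymes share a catalytic domain, and a stretch of its coding sequence is shown because it is what makes these 5 genes a family and because near-identical stretches bear on how well reads can be told apart. Capitals mark bases that are the same in all 5 genes, 35 of 60.
Myst1: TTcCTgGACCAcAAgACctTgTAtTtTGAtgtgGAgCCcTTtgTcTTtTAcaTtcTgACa
Myst2: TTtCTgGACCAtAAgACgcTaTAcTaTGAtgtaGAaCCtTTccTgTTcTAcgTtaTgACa
Myst3: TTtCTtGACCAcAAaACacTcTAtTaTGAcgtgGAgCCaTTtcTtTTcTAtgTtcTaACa
Myst4: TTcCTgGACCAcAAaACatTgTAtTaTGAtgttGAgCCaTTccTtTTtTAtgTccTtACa
Kat5: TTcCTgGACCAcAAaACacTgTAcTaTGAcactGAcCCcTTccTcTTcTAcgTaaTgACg
These coding bases, taken from GENCODE M21 transcripts and its GRCm38 positions, lie at chr7:127924414-127924473 (plus strand, exon 7) for Myst1, chr11:95281546-95281605 (minus strand, exon 11) for Myst2, chr8:22925338-22925397 (plus strand, exon 12) for Myst3, chr14:21634533-21634592 (plus strand, exon 11) for Myst4 and chr19:5605588-5605647 (minus strand, exon 10) for Kat5. Myst3 and Myst4 were the most alike pair of the family in this window, with 83.3% of bases identical, and Myst1 and Kat5 the least alike, with 71.7%.

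The 3 scaffolds share a zinc finger of the PHD type, shown here for the same reason, with capitals where all 3 genes have the same base, 49 of 60.
Brpf1: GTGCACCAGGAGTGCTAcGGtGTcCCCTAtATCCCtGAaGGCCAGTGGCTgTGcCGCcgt
Brd1: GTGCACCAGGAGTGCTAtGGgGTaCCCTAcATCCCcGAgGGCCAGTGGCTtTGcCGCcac
Brpf3: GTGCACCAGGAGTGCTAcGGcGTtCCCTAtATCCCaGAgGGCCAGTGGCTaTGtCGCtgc
These lie at chr6:113314889-113314948 (plus strand, exon 3), chr15:88729911-88729970 (minus strand, exon 2) and chr17:28806669-28806728 (plus strand, exon 2), all coding, and pairs of scaffolds were identical at 85.0% to 86.7% of the bases. Across the longest protein-coding transcript of each gene, the longest run of identical bases in any of the 36 pairs was 35 bases, between Myst3 and Myst4, and the next longest was 23. The Myst3 and Myst4 run, in capitals with 12 bases on either side, is shown because it is the longest place where a short read of one of these genes could be taken for the other.
Myst3: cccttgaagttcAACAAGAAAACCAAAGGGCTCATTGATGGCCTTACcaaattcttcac
Myst4: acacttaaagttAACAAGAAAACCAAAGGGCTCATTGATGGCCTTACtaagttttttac
It lies at chr8:22911808-22911866 (plus strand, exon 8) and chr14:21625041-21625099 (plus strand, exon 7). The run was shorter than the read lengths named in the study's methods, so an untrimmed read from one of these transcripts differs from the other in at least 1 base.

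Reads counted on genes ranged from 19316126 to 41169218 per sample. Values are given as counts scaled to a common library total (CPM) after trimmed mean of M-values (TMM) scaling, in which 3 reads equal 0.0714 to 0.151 CPM. All 9 genes were far above this and passed the filter of more than 1 CPM in at least 2 samples, as did 12703 genes in all. A gene is called changed when the exact test of edgeR gave p < 0.001 and a false discovery rate (FDR) < 0.05 over all 12703 genes, the thresholds of the study. Epor, the targeted gene, had 57, 68 and 11 reads in wild type 1, wild type 2 and the heterozygote and 7 and 19 in EpoR-null 1 and 2, or 2.35, 1.62, 0.475, 0.353 and 0.668 CPM. The heterozygote lay between the 2 EpoR-null samples, so this gene does not separate the heterozygote from them, and whether the counted reads come from the deleted part of Epor is not known. Markers of neural tube progenitors were all detected and summed to between 1626 and 1842 CPM in controls and between 1356 and 1675 CPM in EpoR-null samples. Of this list of 8 only Msi1 was called, with a log2 fold change of -0.51 (FDR = 0.00712 in the edgeR exact test).

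Markers of other tissues were also detected. Primitive erythroid markers summed to 44.1 CPM in the heterozygote, 603 and 1091 CPM in the wild type samples and 965 and 1692 CPM in the EpoR-null samples, with Hba-a1 at 0 in all 5. The heterozygote was also lowest for endothelium (11.8 CPM, against 125 to 274 in the other samples), somite and mesoderm (8.33 CPM, against 36.4 to 97.4), neural crest (25.7 CPM, against 90.5 to 129) and surface ectoderm (5.01 CPM, against 14.6 to 29.6). White blood cell markers summed to 4.91 to 8.16 CPM, most of it Cd68 at 4.19 to 7.60 CPM. Ptprc, Csf1r and Aif1 were each under 1 CPM in every sample. Newborn neuron markers were highest in EpoR-null 1 (886 CPM) and lowest in EpoR-null 2 (175 CPM), with controls between 261 and 431 CPM. Of the 31 tested genes of these other lists 0 were called in the edgeR exact test and 0 had an unadjusted p under 0.05. Both were also so in DESeq2 and in the quasi-likelihood F-test, which called 0 of all 12703 genes. In the exact test with a common dispersion 18 of the 31 had an unadjusted p under 0.05, all of them higher, and Hba-x and Hbb-y were called. Without EpoR-null 1 Dcx and Elavl4 were called, both lower, and without EpoR-null 2 Dcx, Isl1 and Tubb3 were called, all higher. The part of these cells in the values that follow was not tested.

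One of the 9 genes, Myst3, was called, with 52.0% less of its mRNA in neural tubes lacking EpoR than in controls. Called genes made up 11.1% of the group, against 4.77% of all genes tested, 3.84% called lower and 0.929% called higher. The genes leaned to lower levels: both EpoR-null samples were below all 3 controls for 6 of the 9 genes (66.7%), which was the case for 22.1% of all genes, and above all controls for 2 (22.2%), against 21.2% of all genes. The median log2 fold change was -0.26 over the 9 genes and 0.06 over all genes. These comparisons carry no adjustment for transcript length, which fold changes followed over all genes, as given below. The median transcript length was 4826 bases over the 9 genes and 3491 bases over all genes tested. With the FDR threshold alone 2 of the 9 genes were lower, Myst3 and Brpf3, against 5.49% of all genes. The enzymes Myst1 and Kat5 were the 2 genes above all controls and Ing5 the only gene whose groups overlapped. Because these are bulk samples, fewer cells expressing a gene and less RNA per cell cannot be told apart.

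**Figure D1:**
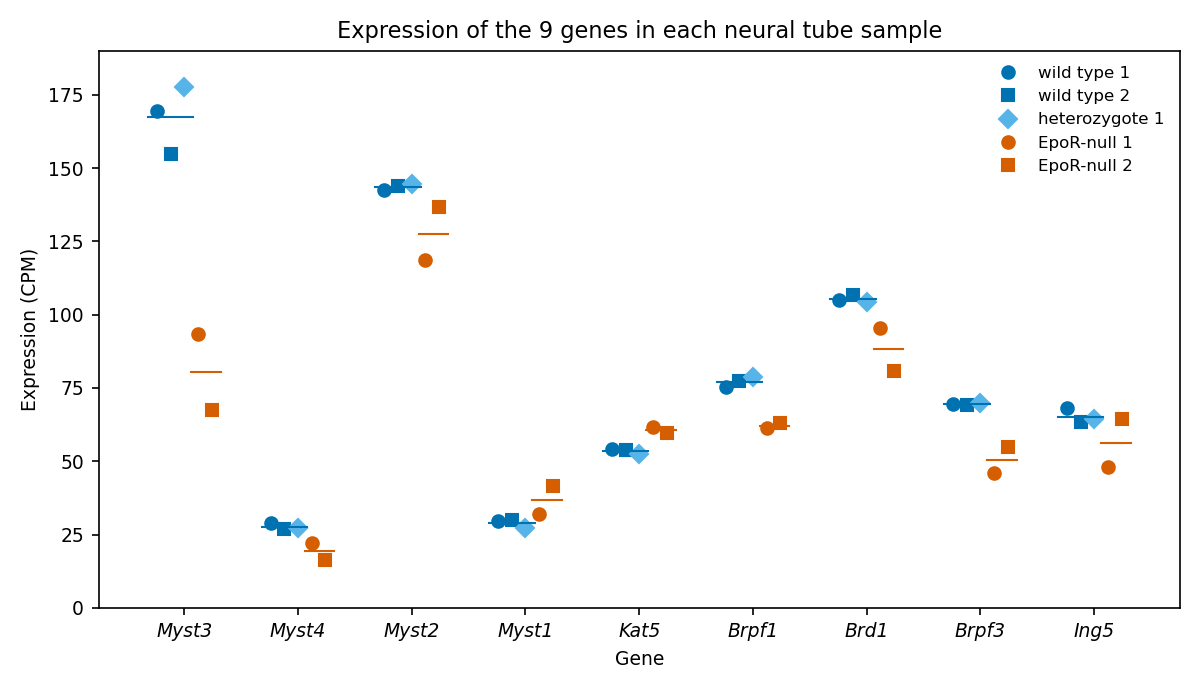
Expression of the 9 genes (CPM, vertical axis) in each of the 5 neural tube samples, with a point per sample and a line at the mean of the 3 controls (blue) and of the 2 EpoR-null samples (orange). Myst3 shows the widest gap, with 155 to 178 CPM in controls and 67.6 and 93.3 CPM in EpoR-null samples, while Ing5 overlaps between the groups.

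Myst3, which encodes the MOZ acetyltransferase (chr8:22859535-22943259, plus strand), had the highest CPM of the 9 genes in controls. It measured 169.5 CPM in wild type 1, 155 CPM in wild type 2, 178 CPM in the heterozygote, 93.3 CPM in EpoR-null 1 and 67.6 CPM in EpoR-null 2. Both EpoR-null samples lay well below the lowest control, and the gap was larger than the spread in either group. The mean fell from 167 ± 11.6 CPM (SD, n = 3) to 80.5 ± 18.1 CPM (SD, n = 2), which is -1.06 on the log2 scale (SE 0.19), with an FDR of 1.51e-05 in the edgeR exact test. The value rested on 1849 and 1923 reads in the EpoR-null samples and 4106 to 6510 reads in the controls, and Myst3 shares 2602 bases on the same strand with a tentative gene model that is not among the counted genes. The call held when any 1 sample was left out, with log2 fold changes from -1.31 without EpoR-null 1 to -0.84 without EpoR-null 2, and was -1.01 (FDR = 0.00277 in the edgeR exact test) without the heterozygote. When the spread was treated as less certain, in edgeR's quasi-likelihood F-test, the log2 fold change was the same and the FDR was 0.0615.

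Myst4, which encodes MORF (chr14:21481434-21672478, plus strand), was expressed at a much lower level. It measured 29.0, 26.8 and 27.2 CPM in wild type 1, wild type 2 and the heterozygote, and 22.1 and 16.4 CPM in EpoR-null 1 and 2. The groups did not overlap, as for Myst3, and EpoR-null 2 was the lowest sample for both genes. The log2 fold change was -0.53 (SE 0.22), with a 95% interval (normal approximation from the SE) from -0.96 to -0.09 and an FDR of 0.152 in the edgeR exact test, so Myst4 was not called. Without EpoR-null 1, where the lone EpoR-null sample is taken to vary like the controls, it was -0.75 with an FDR of 0.00117 and was called.

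Because Myst3 and Myst4 serve the same complex, their balance was compared within samples. The log2 ratio of Myst3 to Myst4 in CPM was 2.55, 2.53 and 2.71 in wild type 1, wild type 2 and the heterozygote, against 2.08 and 2.04 in EpoR-null 1 and 2. The ratio was lower in both EpoR-null samples than in any control, by 0.53 on average, a gap wider than the spread in controls (SD 0.10). An exact permutation test over the 5 samples, two-sided, gave p = 0.2, which is the smallest p that 2 against 3 samples allow, so this design could not reach 0.05 for any ratio.

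Myst2, which encodes HBO1 (chr11:95274259-95310246, minus strand), had the tightest controls of the enzymes relative to its level. It measured 142.5, 144 and 145 CPM in wild type 1, wild type 2 and the heterozygote and 118.5 and 137 CPM in EpoR-null 1 and 2. EpoR-null 2 was only slightly below the controls, and most of the difference came from EpoR-null 1. The log2 fold change was -0.17 (SE 0.14, 95% interval -0.44 to 0.10, FDR = 0.534 in the edgeR exact test). A fall of more than 0.44 on the log2 scale lay outside this interval.

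Myst1, which encodes MOF (chr7:127912516-127925837, plus strand), went the other way. It measured 29.7, 29.9 and 27.3 CPM in wild type 1, wild type 2 and the heterozygote and 31.99 and 41.5 CPM in EpoR-null 1 and 2. Both EpoR-null samples were above all controls, EpoR-null 1 only just, and the log2 fold change of 0.34 (SE 0.20) had a 95% interval from -0.05 to 0.74 and an FDR of 0.333 in the edgeR exact test. Myst1 overlaps the counted gene Prss8 on the other strand over 122 bases, where reads may have been dropped as ambiguous. Set against Myst3 in the same samples, the log2 ratio of Myst1 to Myst3 was -2.51, -2.37 and -2.70 in wild type 1, wild type 2 and the heterozygote, against -1.54 and -0.70 in EpoR-null 1 and 2. It was higher by 1.41 in EpoR-null samples, a 2.65-fold shift in the balance of these mRNAs (exact permutation test, two-sided, p = 0.2, the smallest possible). Myst1 has the shortest and Myst3 the longest transcript of the 9 genes, and when the trend on transcript length and GC content was removed by offsets their log2 fold changes were -0.00162 and -0.56.

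Kat5, which encodes TIP60 (chr19:5603014-5610237, minus strand), showed the same direction with less spread. It measured 54.2, 53.8 and 52.6 CPM in wild type 1, wild type 2 and the heterozygote, against 61.8 and 59.5 CPM in EpoR-null 1 and 2. Both EpoR-null samples were above all controls, yet the log2 fold change was only 0.18 (SE 0.14, 95% interval -0.09 to 0.45, FDR = 0.504 in the edgeR exact test). Kat5 overlaps Rnaseh2c on the other strand over 4006 bases of annotation. HTSeq leaves out reads that fall on 2 genes, and the strand setting is not given in the sources used here, so the level of Kat5 is uncertain.

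Among the scaffolds, which hold the enzyme and choose the histone it acts on, all 3 were below every control in both EpoR-null samples. This was so for 22.1% of all genes, and none of the 3 was called. Their transcripts were 4826 to 7169 bases long. With length and GC offsets their log2 fold changes were -0.24 (Brpf1), -0.12 (Brd1) and -0.13 (Brpf3). Brpf1 (chr6:113307137-113324860, plus strand), the usual partner of MOZ and MORF, measured 75.2, 77.5 and 78.8 CPM in wild type 1, wild type 2 and the heterozygote, against 61.4 and 62.9 CPM in EpoR-null 1 and 2. The samples within each group were close together. Its log2 fold change was -0.31 (SE 0.13) and its FDR 0.145 in the edgeR exact test. Brpf1 overlaps an antisense gene over 16195 bases that is not among the counted genes, so without strand its reads could include antisense RNA.

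Brd1 (chr15:88687034-88734233, minus strand), also known as BRPF2 and a frequent partner of HBO1, was the most abundant scaffold. It measured 105, 107 and 104 CPM in wild type 1, wild type 2 and the heterozygote and 95.6 and 80.8 CPM in EpoR-null 1 and 2. EpoR-null 2 stood further from the controls than EpoR-null 1. The log2 fold change was -0.26 (SE 0.14), with an FDR of 0.313 in the edgeR exact test, so Brd1 was not called. Without EpoR-null 1, which leaves 1 EpoR-null sample, it was -0.38.

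Brpf3 (chr17:28801090-28839949, plus strand), the third scaffold, had nearly equal controls at 69.6, 69.3 and 69.96 CPM, against 46.0 and 54.9 CPM in EpoR-null 1 and 2. The gap of both EpoR-null samples to the controls was many times the spread among controls. The log2 fold change was -0.46 (SE 0.15), with p = 0.00271 and an FDR of 0.0406 in the edgeR exact test, past the FDR threshold and short of the p threshold. The call turned on single samples: without EpoR-null 2 it was -0.60 (FDR = 0.000154, called), while the FDR was 0.459 without wild type 1, 0.253 without wild type 2 and 0.307 without the heterozygote, at nearly the same fold change. Brpf3 overlaps a pair of non-coding genes on the other strand, over 534 and 615 bases, that are not among the counted genes.

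Ing5 (chr1:93803965-93822101, plus strand), which reads methylated histone H3 for the MOZ, MORF and HBO1 complexes, did not separate the groups. It measured 68.2, 63.3 and 64.3 CPM in wild type 1, wild type 2 and the heterozygote and 48.2 and 64.6 CPM in EpoR-null 1 and 2. EpoR-null 2 lay inside the control range and EpoR-null 1 below it. The log2 fold change was -0.21 (SE 0.18, FDR = 0.571 in the edgeR exact test), and it was -0.01 without EpoR-null 1 and -0.44 (FDR = 0.0180) without EpoR-null 2.

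Spread differed between the groups for these genes. Coefficients of variation over the 3 controls ran from 0.441% (Brpf3) to 6.90% (Myst3), and over the 2 EpoR-null samples from 1.74% (Brpf1) to 22.5% (Myst3). The EpoR-null samples also differed in which genes stood furthest from controls: EpoR-null 2 for Myst3, Myst4, Myst1 and Brd1, EpoR-null 1 for Brpf3, Myst2, Ing5, Brpf1 and Kat5. The heterozygote was above both wild type samples for Myst2, Myst3, Brpf1 and Brpf3, below both for Myst1, Kat5 and Brd1, and between them for Myst4 and Ing5.

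To compare levels between genes, CPM was divided by the length of the longest annotated transcript in kilobases. On this scale Myst2 was the highest of the 9 in controls (40.4 ± 0.309 CPM per kb, SD, n = 3), followed by Kat5 (23.8 ± 0.386), Brd1 (20.4 ± 0.264), Myst3 (18.4 ± 1.27), Myst1 (18.4 ± 0.908), Brpf1 (16.0 ± 0.375), Ing5 (14.4 ± 0.577), Brpf3 (9.71 ± 0.0428) and Myst4 (3.59 ± 0.156). Of the neighbours in this order only Myst3 and Myst1 overlapped over the 3 controls. In EpoR-null samples (n = 2) Myst2 (35.8 ± 3.61 CPM per kb) and Kat5 (27.0 ± 0.721) still led and Brpf3 (7.03 ± 0.879) and Myst4 (2.50 ± 0.516) were still last. Myst3 stood between them at 8.83 ± 1.99 CPM per kb, moving from place 4 to place 7, and Myst1 at 23.3 ± 4.28 CPM per kb, moving from place 5 to place 3. There the ranges of Brpf1 and Ing5 overlapped, as did those of Myst3 and Brpf3.

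As a share of the summed CPM per kb of the 5 enzymes, Myst3 made up 17.6%, 16.4% and 18.7% in wild type 1, wild type 2 and the heterozygote and 10.9% and 7.37% in EpoR-null 1 and 2. Myst1 made up 17.9%, 18.2% and 16.6% in these controls and 21.5% and 26.1% in the EpoR-null samples, and Kat5 22.4% to 23.1% in controls and 29.2% and 26.3% in EpoR-null samples. The sum itself was close, at 104 to 105 CPM per kb in controls and 94.2 and 101 in EpoR-null samples. These shares carry no adjustment for the trend of fold changes on transcript length, which alone gave log2 values of 0.34 for Myst1, 0.25 for Kat5 and -0.52 for Myst3. Summed over the 3 scaffolds, the level was 45.7 to 46.5 CPM per kb in controls and 37.7 and 36.4 in EpoR-null samples. Their mix was nearly constant in 4 samples, with Brpf1 at 34.1% to 35.8% and Brpf3 at 20.8% to 21.3%, and EpoR-null 1 had the lowest share of Brpf3 (17.0%). The log2 ratio of Brpf1 to Brd1 differed by -0.05 between the groups (exact permutation test, two-sided, p = 0.8) and that of Brpf1 to Brpf3 by 0.16 (p = 0.2, the smallest possible, same exact test).

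**Figure D2:**
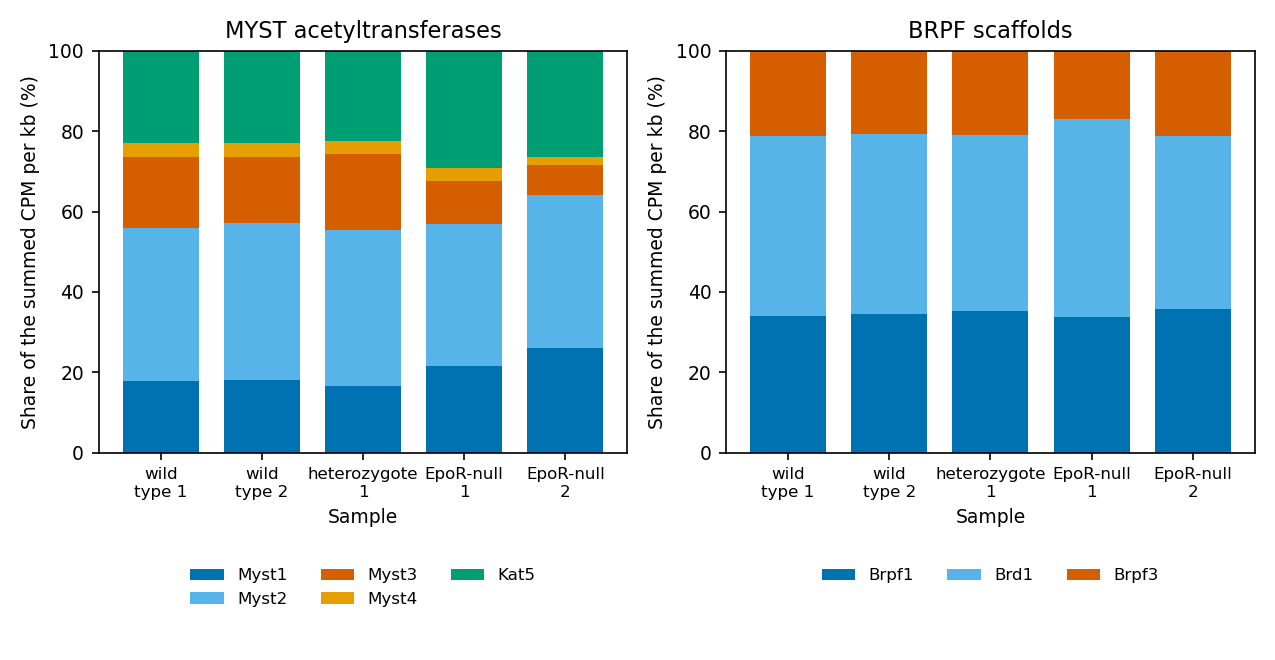
Share (%, vertical axis) of each gene in the summed CPM per kb of the 5 MYST enzymes (left) and the 3 BRPF scaffolds (right) in each sample. The Myst3 share is 16.4% to 18.7% in controls and 10.9% and 7.37% in the EpoR-null samples, and the Brpf1 share stays between 33.8% and 35.8% in all 5.

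The fold changes of the 9 genes followed the length of their transcripts, as did those of genes at large. Ordered from the shortest transcript, Myst1 (1579 bases) and Kat5 (2245 bases) were above 0 and Myst2 (3560 bases) just below it. Ing5 (4538 bases), Brpf1 (4826 bases) and Brd1 (5152 bases) had log2 fold changes from -0.31 to -0.21, and Brpf3 (7169 bases), Myst4 (7699 bases) and Myst3 (9113 bases) from -1.06 to -0.46. Spearman's rho between length and log2 fold change was -0.98 over the 9 genes and -0.63 over 12584 tested genes with a length. These are descriptions, since all points share the same 5 libraries. The median log2 fold change of all genes was 0.38 under 2000 bases, 0.11 from 2000 to 4000 bases, -0.13 from 4000 to 6000 bases and -0.41 at 6000 bases or more. Genes called lower made up 0.211%, 0.446%, 2.86% and 18.7% of these classes.

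**Figure D3:**
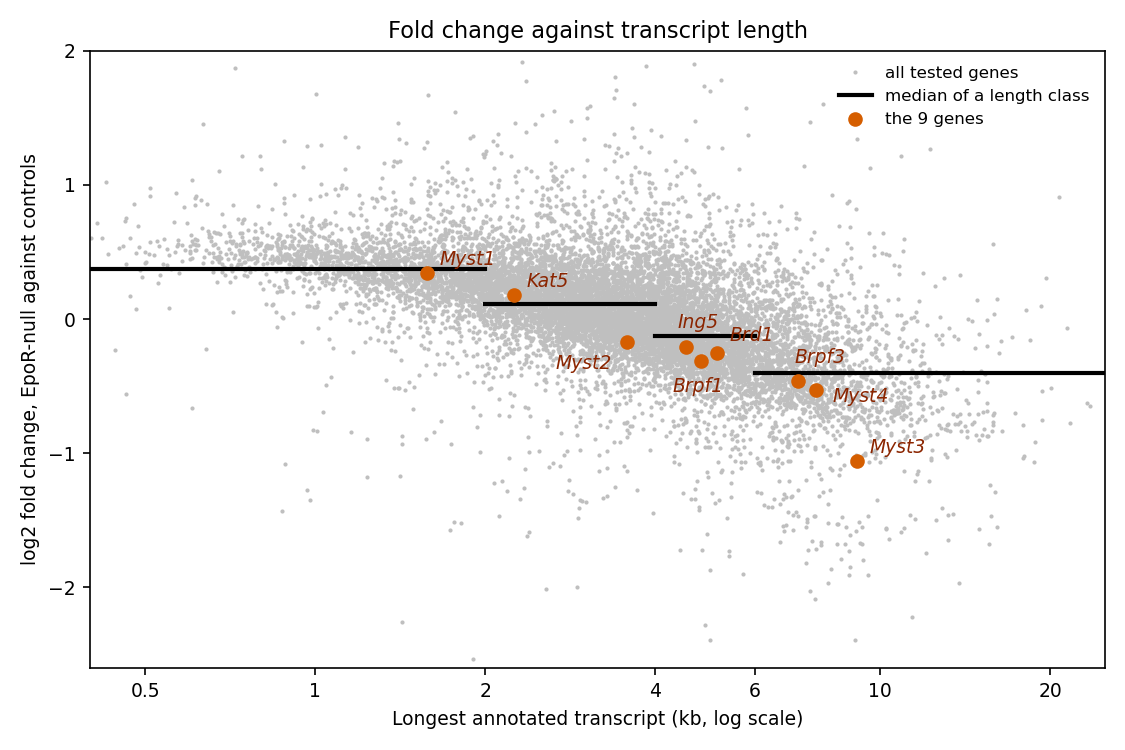
Log2 fold change of EpoR-null against controls (vertical axis) by length of the longest annotated transcript (kb, log scale) for tested genes (grey) and the 9 genes (orange), with black lines at the median of each length class. The 9 genes lie along the general slope, except Myst3, which lies at -1.06 where the median of its class is -0.41; 71 of the 12584 genes fall outside the axes.

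When each sample's trend on transcript length and GC content was removed by offsets, most of these differences shrank. In the likelihood-ratio test of edgeR, Myst3 went from -1.06 without offsets to -0.56 with them and was still called (FDR = 0.0116). The trend alone gave -0.52 for a gene of its length and GC content. Among the other genes the change with offsets was -0.24 for Brpf1, -0.21 for Myst2, -0.13 for Brpf3, -0.12 for Brd1, -0.11 for Myst4 and -0.07 for Ing5, none of them called. Kat5 (-0.07) and Myst1 (-0.00162) then lay on the other side of 0. With the quasi-likelihood F-test and the same offsets the FDR of Myst3 was 0.201.

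**Figure D4:**
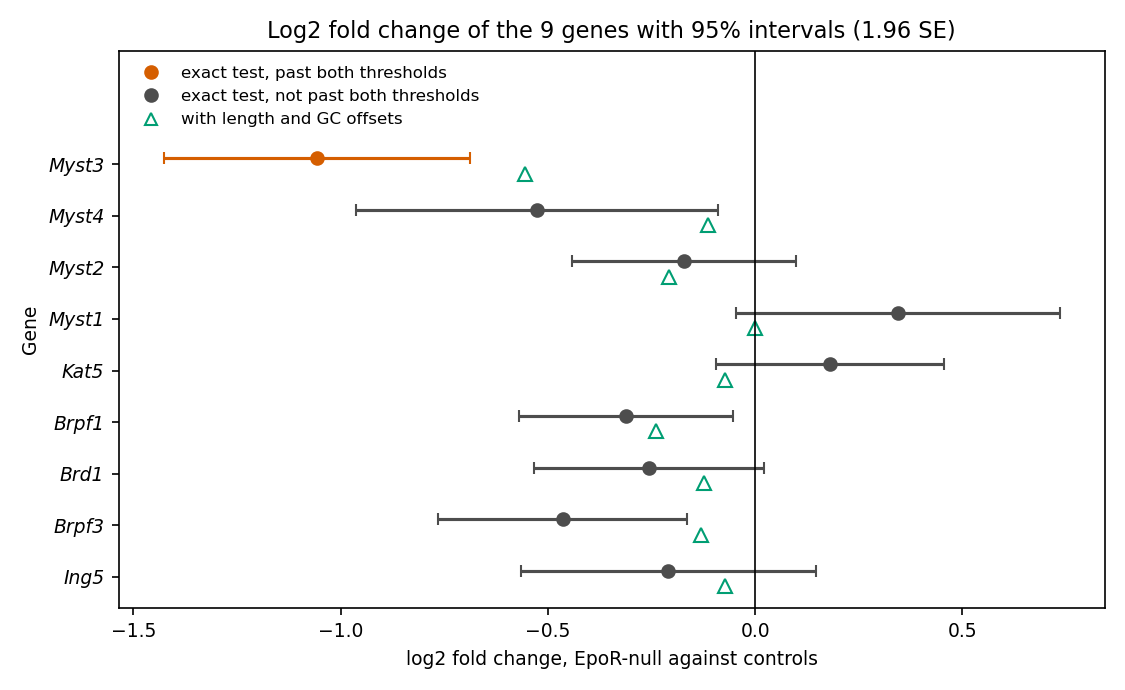
Log2 fold change of EpoR-null against controls (horizontal axis) for each of the 9 genes, with bars for the 95% interval (normal approximation from the SE), and open triangles for the value with length and GC offsets. Myst3 is the only gene past both thresholds and moves from -1.06 to -0.56 with offsets, while Myst1 and Kat5, to the right of 0, move to 0 or just left of it.

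Genes whose 5 log2 CPM values, centred on their own mean, lay closest to those of Myst3 were Usp51 (Euclidean distance 0.0595), C1galt1 (0.106), Dyrk2 (0.116), Chd7 (0.119) and Pds5a (0.119), with log2 fold changes from -1.07 to -1.03. Dyrk2, a protein kinase, Chd7, a chromatin remodeller needed in neural crest, and Pds5a, a cohesin regulator, were called, and Usp51, a ubiquitin protease, and C1galt1, a glycosyltransferase, were not. Their lengths ran from 2204 bases (Usp51) to 10216 bases (Chd7). Among the 9 genes Myst4 was nearest to Myst3, at a distance of 0.603 with 664 tested genes nearer, and Myst1 was the most distant (1.66).

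The other subunits of the MYST complexes were read from the same fit. Of 32 partner genes, all tested, 5 were called lower and none higher (15.6%, beside 4.77% of all genes called). The median log2 fold change of the 32 was -0.07. Both EpoR-null samples were below all controls for 11 (34.4%, against 22.1% of all genes) and above for 7 (21.9%, against 21.2%). In the MOZ, MORF and HBO1 complexes 2 of 5 partners were called lower (40.0%, beside 4.77% of all genes called and 3.84% called lower). Both were JADE scaffolds, the alternative to BRPF for HBO1: Phf16 (Jade3), at 24.2 to 25.5 CPM in controls and 11.1 and 10.8 CPM in EpoR-null samples, fell by 1.18 on the log2 scale (SE 0.21, FDR = 1.02e-05 in the edgeR exact test). Phf17 (Jade1), at 58.8 to 60.9 CPM in controls and 38.3 and 40.8 CPM in EpoR-null samples, fell by 0.59 (SE 0.15, FDR = 0.00301 in the same test). The remaining 3 were not called: Ing4 was above all controls (0.36, FDR = 0.206), as was Meaf6 (0.29, FDR = 0.387), and Phf15 (Jade2) was low in both groups, at 0.656 to 2.04 CPM. When any 1 control was left out, or with a common dispersion, the exact test called only Phf16 of these 5. The quasi-likelihood F-test called 0 of the 5, as of all genes.

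In the MSL and NSL complexes of MOF 1 of 11 partners was called lower (9.09%, beside 4.77% of all genes called and 3.84% called lower). The median of the 11 was -0.23. Hcfc1, a host cell factor that docks transcription factors to chromatin enzymes, fell from 513.5 ± 21.4 CPM (SD, n = 3) to 311 ± 30.8 CPM (SD, n = 2), or -0.72 on the log2 scale (SE 0.15, FDR = 0.000184 in the edgeR exact test). In the TIP60 complex 2 of 16 partners were called lower (12.5%, beside the same shares of all genes), with a median of 0.07 over the 16. These were its largest subunits, the scaffold Trrap, from 182 ± 5.73 CPM to 122 ± 0.902 CPM (log2 -0.58, FDR = 0.000785), and the helicase Ep400, from 222 ± 5.56 CPM to 139 ± 2.31 CPM (log2 -0.68, FDR = 5.96e-05). The enzyme itself, Kat5, was at 0.18. The trend on transcript length and GC content alone gave log2 values of -0.59 for Trrap, -0.54 for Ep400 and 0.25 for Kat5. With this trend removed by offsets, 0 of the 16 had an unadjusted p under 0.05 in the likelihood-ratio test. Transcripts of the called partners were 4962 (Phf16) to 12479 bases (Trrap) long, and with length and GC offsets only Phf16 of the 32 was still called in the likelihood-ratio test. Without wild type 1 the exact test called 3 of the 32 and 115 of all genes, against 5 and 606 with all 5 samples. The quasi-likelihood F-test called 0 of the 11 and 0 of the 16, with 5 and 4 at an unadjusted p under 0.05. It called 0 of all 12703 genes, with 3052 at an unadjusted p under 0.05. The exact test with a common dispersion also called 0 of the 11 and 0 of the 16, with 1 and 1 under that p. Of all genes it called 257, with 1310 under that p.

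Acetyltransferases outside the MYST family also included called genes. Of 8, 3 were called lower and none higher (37.5%, beside 4.77% of all genes called and 3.84% called lower), with a median of -0.44. Ep300 fell from 129 ± 5.25 CPM to 72.4 ± 4.20 CPM (log2 -0.83, FDR = 5.25e-07 in the edgeR exact test) and its paralog Crebbp from 57.2 ± 2.42 CPM to 30.5 ± 7.24 CPM (log2 -0.91, FDR = 0.000799). Taf1, a subunit of the general factor TFIID, fell by 0.73 on the log2 scale (FDR = 0.0200). Without wild type 1, of these 3 only Ep300 was called. The quasi-likelihood F-test called 0 of the 8, and so did the exact test with a common dispersion, each with 4 at an unadjusted p under 0.05. Of all 12703 genes these tests called 0 and 257, with 3052 and 1310 at an unadjusted p under 0.05. The 11 zinc-dependent histone deacetylases, which remove the acetyl groups, had a median of 0.13. Both EpoR-null samples were above all controls for 5 of them (45.5%, against 21.2% of all genes) and below for 1 (9.09%, against 22.1%). Of the 11, 1 was called lower and none higher (9.09%, beside the same 4.77% and 3.84% of all genes). This was Hdac4, which acts as a corepressor, at 16.9 to 18.6 CPM in controls and 7.17 and 6.30 CPM in EpoR-null samples (log2 -1.38, FDR = 2.22e-05 in the edgeR exact test). The quasi-likelihood F-test called 0 of the 11, as of all genes, with 3 at an unadjusted p under 0.05, 1 of them lower. The transcripts of these 4 genes were 8054 to 10820 bases long, and with length and GC offsets 0 of the 8 acetyltransferases and 1 of the 11 deacetylases, Hdac4, were called in the likelihood-ratio test, with 3 and 1 at an unadjusted p under 0.05.

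Genes known to depend on MOZ or BRPF1 in mouse embryos or blood cells, Hox genes above all, gave no call in the edgeR exact test. Of 13 listed, 11 passed the filter, with a median log2 fold change of 0.14. Both EpoR-null samples were below all controls for 0 of them, against 22.1% of all genes. They were above all controls for 3 (27.3%, against 21.2% of all genes). The 11 genes had a median transcript length of 2566 bases, and all genes of 2000 to 4000 bases had a median log2 fold change of 0.11. The exact test called 0, with 1 gene at an unadjusted p under 0.05. DESeq2 and the likelihood-ratio test with length and GC offsets also called 0. So did the quasi-likelihood F-test, which called 0 of all genes. Meis1, a homeobox cofactor of Hox proteins, was at 137 to 156 CPM in controls and 144 and 140.0 CPM in EpoR-null samples (log2 -0.04, SE 0.14, FDR = 0.924 in the edgeR exact test). Hoxb3 was at 123 to 135 CPM in controls and 139 and 114 CPM in EpoR-null samples (log2 -0.03, SE 0.15, FDR = 0.960 in the same test). The EpoR-null samples lay within the control range for Meis1 and on either side of it for Hoxb3.

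**Figure D5:**
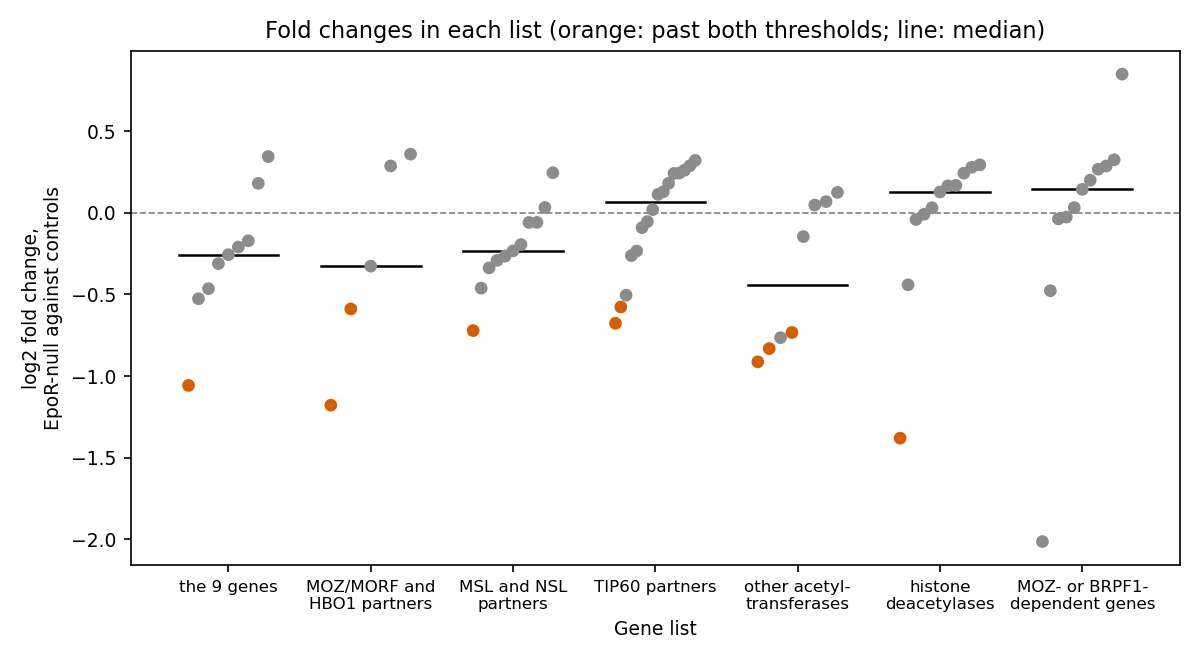
Log2 fold change of EpoR-null against controls (vertical axis) for every tested gene of each list, with a point per gene (orange where called) and a line at the list's median. The 9 genes and the MOZ, MORF and HBO1 partners have medians of -0.26 and -0.33, the deacetylases and the MOZ- or BRPF1-dependent genes 0.13 and 0.14, and each called gene lies below 0.

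Promoters were searched for the STAT5 motif because STAT5 is a main carrier of the EpoR signal. The motif TTCNNNGAA, on either strand, was in none of the 11 RefSeq promoter windows around the transcription start of 8 of the 9 genes, Kat6a having no entry, and in 8.30% of all 32851 promoter windows. No match says only that these letters are not in these windows.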

How the data were processed

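Raw read counts per gene, 1 table per sample, were deposited by the authors without normalization. Per the labels, the authors used FastQC, Trimmomatic 0.32, TopHat2 2.1.0, HTSeq 0.6.1 and edgeR with build mm9; the study's methods name a human build, and the gene annotation and strand setting are not given in the sources used here. HTSeq's summary lines (8.12% to 11.0% of a sample's reads outside genes, 1.85% to 2.31% ambiguous) were left out. TMM scaling, tagwise dispersions (common biological coefficient of variation 0.232), the exact test and Benjamini-Hochberg adjustment were done with edgeR 4.0.16 in R 4.3.3, EpoR-null (2) against controls (3). DESeq2 1.42.0 and other settings were alternatives, and the exact, quasi-likelihood, likelihood-ratio and DESeq2 tests and the offsets were tested on simulated data.

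Symbols, older Myst names included, were matched to GENCODE M21 (GRCm38) for positions, sequences and the length and GC content of the longest transcript, found for 99.06% of tested genes. Positions are GRCm38 and not mm9. Offsets used a loess span of 0.5. CPM per kb is CPM over this length.

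The 9 genes and all lists (partners, other acetyltransferases, deacetylases, MOZ- or BRPF1-dependent genes, cell type markers) were chosen with earlier results of these data known. Named were all 9 genes, up to 4 called genes per list and direction, Trrap, Ep400, Crebbp and Ep300, the 2 most abundant genes of a list without calls, Epor, and the 5 genes nearest to Myst3. Msi1, Ing4, Meaf6, Phf15, Prss8, Rnaseh2c, Hba-a1, Hba-x, Hbb-y, Dcx, Elavl4, Isl1, Tubb3, Cd68, Ptprc, Csf1r and Aif1 were named after their values were seen. Samples of different genotype came from different embryos, but nothing says that samples of the same genotype did. The p-values therefore measure only the spread between these samples, which within a genotype may be technical.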

Additional observations from a re-analysis of the deposited data

How the results depend on the processing

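Of the 9 genes the exact test called 1 (Myst3). It called 2 with the FDR threshold alone, with DESeq2 and with library size as the only scaling (each time Brpf3 besides Myst3), and 1 to 3 when 1 sample was left out, with 3 (Brd1, Myst3 and Myst4) without EpoR-null 1 and 2 (Brpf3 and Myst3) without EpoR-null 2. The quasi-likelihood F-test called 0, with 5 at an unadjusted p under 0.05. With length and GC offsets it also called 0, both with the replicate block and, in a fit added after seeing the data, without it, each with 1 at an unadjusted p under 0.05. Over all genes the exact test called 606. The count was 928 with the FDR threshold alone, 1028 with DESeq2, 257 with a common dispersion and 172 in the likelihood-ratio test with offsets (627 without). It was 0 in the quasi-likelihood F-test (3052 at an unadjusted p under 0.05) and 0 with offsets, with and without the replicate block (1310 and 1220 at an unadjusted p under 0.05). Leaving out 1 sample gave 115 (without wild type 1) to 2296 (without EpoR-null 1) calls, with 294 without wild type 2, 253 without the heterozygote (the same fit as wild type alone as controls) and 980 without EpoR-null 2. Of the 32 partner genes 5 were called, against 3 (without wild type 1) to 12 (without EpoR-null 1) with 1 sample left out, 1 with a common dispersion, 1 in the likelihood-ratio test with offsets, and 0 in the quasi-likelihood F-test (12 at an unadjusted p under 0.05) and with offsets in it, with and without the replicate block (3 and 2). The cause of these changes was not tested.

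The log2 fold change of Myst1 changed sign with offsets, to -0.00162 (likelihood-ratio test), -0.015 (quasi-likelihood with the replicate block) and -0.00256 (without it), and that of Kat5 to -0.0718, -0.0479 and -0.0717. The log2 ratio of Brpf1 to Brd1 changed sign when 1 sample was left out, from -0.189 without EpoR-null 2 to 0.0878 without EpoR-null 1. The other 7 genes kept their sign under all 16 alternatives. Wild type and EpoR-null samples share the numbers 1 and 2 in the labels, which is only 2 pairs. The difference between numbers 1 and 2 correlated between the genotypes over 12703 genes (Pearson 0.427, Spearman 0.529), and nothing else says that a number marks a litter or batch. With the number as a replicate block, the quasi-likelihood F-test called 291 genes, 5 partner genes and Myst3 (-1.02, FDR = 0.0410), and of the 8 other acetyltransferases 1 (Ep300). No pair of samples was a duplicate. The fewest reads of any of the 9 genes in a sample were 437 (Myst4), so the 2 EpoR-null samples, and not depth alone, limit the precision, and no ratio could reach an exact p under 0.2.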
